A study of Mus musculus with 18 samples.

Results

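H3K27me3 was followed in mouse embryonic stem cells after 7 days with the EZH2 inhibitor EPZ-6438 at 10 µM, against the same time in its solvent DMSO. H3K27me3, the trimethylated form of lysine 27 of histone H3, was read by chromatin immunoprecipitation and sequencing with Drosophila spike-in chromatin in 4 of the 18 libraries of the series, 2 libraries for each treatment. These 4 libraries were chosen by their labels. The cells were E14, a mouse embryonic stem cell line with no further genetic change named in the labels. They were kept in 2i/LIF, a medium that blocks MEK and GSK3, contains the cytokine LIF and holds such cells undifferentiated. Both arms shared the line, the medium and the 0.05% of Drosophila S2 chromatin added before precipitation. The 10 libraries of untreated cells, 2 for each of 5 marks, were not part of the comparison of the arms. They served to sort and filter genes, find windows high in all 5 marks, estimate depth and describe marker genes. Nothing in the labels says that replicates came from separate cultures, so p-values measure only the spread between these libraries, which may be technical.

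PRC2 is the enzyme complex that methylates H3K27 step by step, with EZH2 or its paralogue EZH1 as the catalytic subunit. H3K27me3 marks the CpG-rich promoters of silent developmental genes in stem cells, and H3K27me2 covers much of the rest of the genome. H3K36me3 is laid down over the bodies of transcribed genes and is low where H3K27me3 is high. Once its enzyme is blocked, H3K27me3 can leave a site by dilution at replication or by demethylation.

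Estimated depth was 16.3 and 21.1 M (units of 1000000) mouse reads in the DMSO libraries against 0.750 and 1.34 M after the inhibitor. The inhibitor libraries held a read in 26.9% and 38.8% of 1 kb windows, against 80.2% and 83.99% after DMSO. Their average window held 0.396 and 0.709 reads, so a promoter of average level rests on 0 to a few reads, and only class means or strongly marked genes are resolved. In untreated cells the 8 measured bodies of naive stem cell markers had a median H3K36me3 level of 7.36 times the library mean. The medians for trophectoderm, primitive endoderm, neural and fibroblast markers lay between 1.13 and 3.17. No RNA was measured in these libraries.

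On the spike-in scale, H3K27me3 was lost almost everywhere. This scale is the read number of a window times the factor found in each deposited track. The autosomal mean was 51.3 and 37.6 scaled reads per 1 kb window in the DMSO libraries and 0.0959 and 0.0702 in the inhibitor libraries. The arms did not overlap, with means of 44.4 ± 9.67 and 0.0830 ± 0.0182 (SD, n = 2), a 535-fold difference. An exact two-sided permutation test of 2 against 2 libraries gave p = 0.333, the smallest p this design allows, as for every mean below whose arms do not overlap. How the factors were derived is not stated, and all levels on this scale rest on them.

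The same loss was called promoter by promoter. A promoter was taken as the 1 kb on each side of the start site, and 16221 autosomal protein-coding promoters were measured. Scaled reads averaged 132.6 and 94.6 in the DMSO libraries against 0.295 and 0.258 in the inhibitor libraries, 411-fold lower. Of 13691 promoters with at least 10 reads over the 4 libraries, limma called 13581 lower at an adjusted p under 0.05 (99.2%) and 0 higher. Of 15932 gene bodies, 15919 were called lower (99.9%) and 0 higher. With nearly every gene called, a member of a gene list says little by being called, so the size of the fall and the place of the remaining reads are what differ between genes.

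The remaining reads lay more often in genes. Promoters make up 1.26% of the autosomal windows. They held 3.34% and 3.25% of reads with DMSO and 3.90% and 4.66% with the inhibitor. Gene bodies outside promoters held 41.9% and 41.5% after DMSO and 45.7% and 43.4% after the inhibitor. Windows outside every annotated gene went the other way, from 40.4% and 40.9% to 36.6% and 37.7%. Relative to the library mean, which removes the spike-in factor and the overall loss, these intergenic windows were at 0.807 ± 0.00756 and 0.738 ± 0.0164 (SD, n = 2). The arms were apart in all 3 places, and no input library was used here, so the share of reads unrelated to the antibody was not measured.

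**Figure D1:**
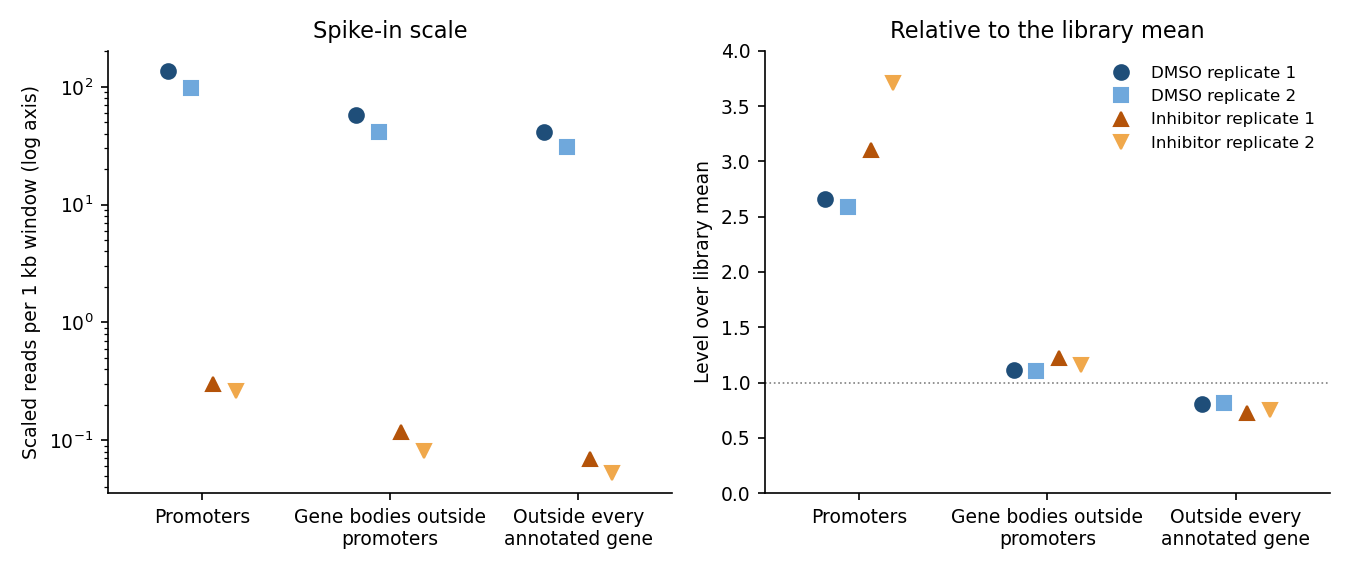
H3K27me3 in each library at promoters, in gene bodies outside promoters and outside every annotated gene, as scaled reads per 1 kb window (left, log axis) and as the level over the library's own autosomal mean (right). Each point is 1 library. The inhibitor points lie far lower on the left, and on the right they lie above DMSO at promoters and below it outside genes.

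The fall was uneven across promoters: it grew with the starting level up to decile 9 and was smaller again in decile 10. Promoters were sorted into deciles by H3K27me3 in untreated cells, which are libraries of their own. In the lowest decile the level was 0.141 and 0.129 times the library mean after DMSO and 1.34 and 1.52 times after the inhibitor. These promoters lost 51.2-fold on the spike-in scale. In decile 5 the loss was 192-fold, in decile 7 it was 508-fold, in decile 8 it was 735-fold and in decile 9 it reached 1028-fold. In decile 9 the relative level went from 5.67 and 5.55 to 2.88 and 2.99. The highest decile broke this order. It lost 411-fold, and its relative level was 13.0 and 12.6 after DMSO and 14.6 and 19.7 after the inhibitor.

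Among the lower 5 deciles, 8111 promoters in all, the inhibitor libraries were nearly flat. Decile means ran from 1.34 to 1.73 in the first inhibitor library and from 1.52 to 1.92 in the second, where DMSO climbed from 0.129 to 0.544. The class mean went from 0.292 ± 0.00801 with DMSO to 1.63 ± 0.119 with the inhibitor (SD, n = 2). On the spike-in scale the class fell 97.0-fold. Promoters that carried the least H3K27me3 thus took a larger share of the few reads left, and inhibitor reads were found at 58.2% and 75.0% of them, at a median of 1 and 2 reads.

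**Figure D2:**
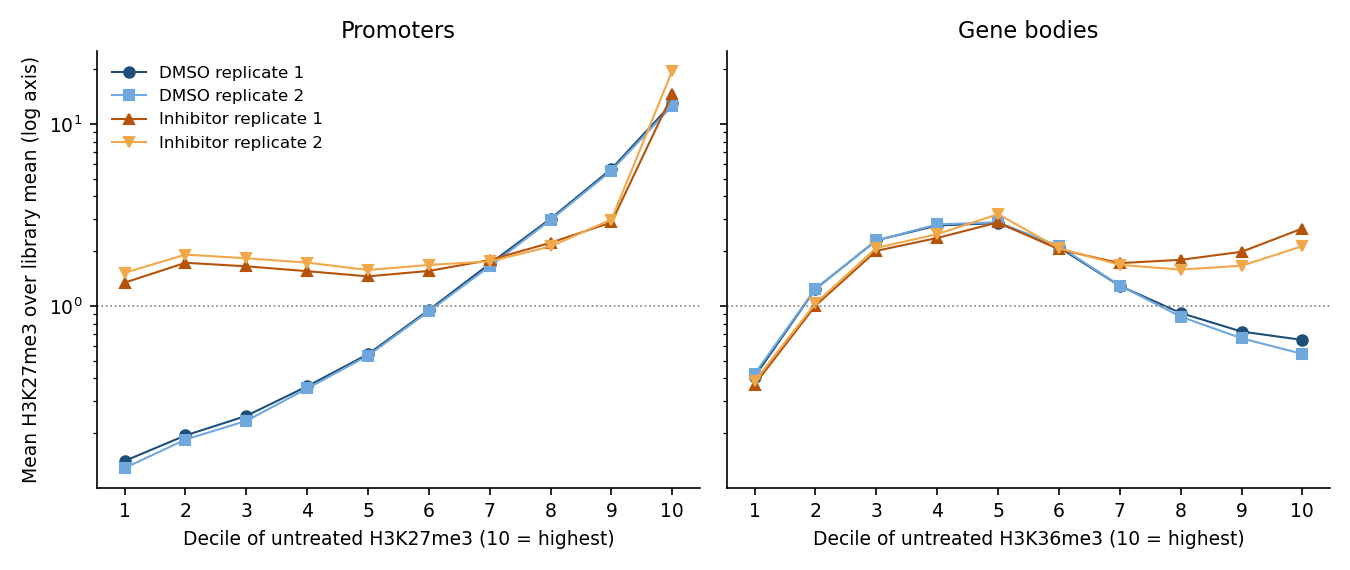
Mean H3K27me3 over the library mean (log axes) for promoters by decile of untreated H3K27me3 (left) and for gene bodies by decile of untreated H3K36me3 (right). Each line is 1 library. At promoters the inhibitor lines are flat up to decile 7 and then climb to 14.6 and 19.7, and over gene bodies the inhibitor libraries lie above both DMSO libraries from decile 7 upward.

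The top decile, 1622 promoters, held an unequal share of the remaining reads. Every one of them had reads in both DMSO libraries and 1568 had reads in both inhibitor libraries. Averaged over libraries, the mean relative level was 12.8 ± 0.286 with DMSO and 17.1 ± 3.60 with the inhibitor (SD, n = 2). The median told the opposite, with 12.2 and 11.8 after DMSO and 7.57 and 7.76 after the inhibitor. So most of these promoters lost more than the genome as a whole, and a minority kept far more. Both inhibitor libraries were below both DMSO libraries at 915 of the 1622 promoters (56.4%, against 27.9% of all promoters measured). Both were above at 371 (22.9%, against 32.8% of all).

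The spread was wider after the inhibitor. After DMSO the level at the 90th percentile of the top decile was 2.55 and 2.47 times that at the 10th. After the inhibitor this ratio was 14.0 and 24.3, but the 10th percentile there rests on 2 and 3 reads. Counting error alone widens the ratio at that depth, and its part in the difference was not tested. After DMSO 0 of these promoters were above 50 times the library mean. After the inhibitor 89 and 169 were. Of the 369 promoters of any class whose mean inhibitor level passed 20 times the library mean, 365 belonged to the top decile.

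The promoters highest in one inhibitor library were on average also highest in the other. Ranked by replicate 1, the top decile was cut into 10 equal classes. The highest class (162 promoters) averaged 92.0 times the library mean in replicate 2, and the lowest averaged 4.39. Ranked by replicate 2, the corresponding classes averaged 62.7 and 4.18 in replicate 1. After DMSO the classes ranked by replicate 1 differed by much less, at 20.9 and 20.0 against 9.30 and 9.31. Across the 1622 promoters the inhibitor replicates correlated with a Spearman rho of 0.769 and the DMSO replicates with 0.919. These are descriptions across genes, which are not independent, and neighbouring start sites can share a window.

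**Figure D3:**
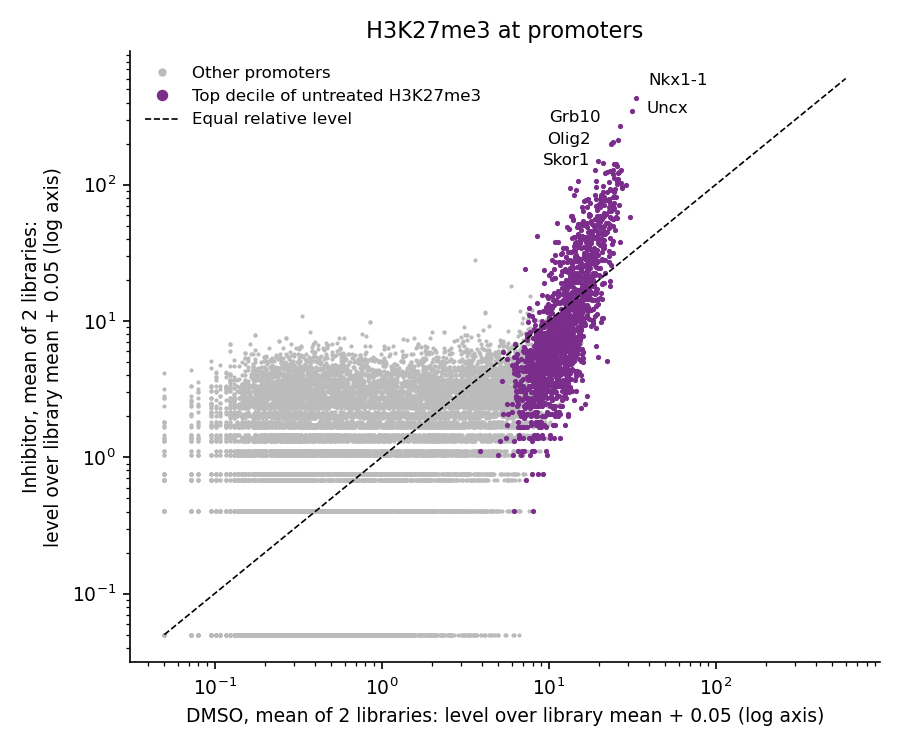
H3K27me3 at each of 16221 promoters, as the level over the library mean plus 0.05, averaged over 2 libraries, after DMSO (horizontal, log axis) and after the inhibitor (vertical, log axis). The top decile of untreated H3K27me3 is in purple, the dashed line marks equal relative levels, and the 5 promoters with the highest inhibitor level are named. Below a DMSO level of about 5 the cloud is flat, and within the top decile it turns steeply upward.

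The highest level after the inhibitor was at Nkx1-1, a homeobox transcription factor gene on chromosome 5 with its start site at 33434090. Its promoter held 565 and 754 reads with DMSO and 232 and 810 with the inhibitor. These are 32.7 and 33.8 times the library mean against 293 and 571 times. On the spike-in scale it still fell 43.3-fold, from 1679 and 1270 scaled reads to 28.1 and 40.1. Uncx, another homeobox gene of the same chromosome, held 493 and 766 reads and then 159 and 698. Its relative level went from 28.6 and 34.3 to 201 and 492, with a 51.2-fold fall on the spike-in scale. For both genes the inhibitor libraries stood far above both DMSO libraries on the relative scale and far below them on the spike-in scale.

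Grb10, an imprinted gene for a signalling adaptor, came next. Its promoter on chromosome 11 had relative levels of 27.2 and 26.3 after DMSO and 217 and 317 after the inhibitor, with a 55.3-fold fall in scaled reads. Olig2, a bHLH factor of the neural and oligodendrocyte lineages on chromosome 16, was at 24.5 and 27.1 and then at 173 and 255, a 66.0-fold fall. Skor1, a corepressor gene on chromosome 9, was at 25.3 and 23.3 and then at 160 and 250, a 66.1-fold fall. None of the 5 promoters contained a window that was more than 10 times the library mean in all 5 untreated marks. limma called all 5 lower on the spike-in scale, with adjusted p between 2.58e-06 and 7.72e-06. It called 13581 of 13691 promoters (99.2%) lower on that scale, so these calls do not set the 5 apart.

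Other promoters of the top decile lost far more. Inf2, a formin gene, held 246 and 265 reads with DMSO and 2 and 2 with the inhibitor. Its relative level went from 14.3 and 11.9 to 2.52 and 1.41, a 3453-fold fall in scaled reads. Ccin, the gene for the sperm head protein calicin, held 233 and 228 reads and then 2 and 3, a 2757-fold fall. With so few reads left, these folds carry a wide counting error.

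The 300 bases around the start sites of Nkx1-1 and Uncx, the promoters with the highest level over the library mean after the inhibitor, and of Inf2 and Ccin, top-decile promoters among the lowest 10% in both inhibitor libraries, are shown to place their CpG sites beside these values. The sequences are RefSeq's for GRCm38.p6 and run 5′ to 3′ on the gene's strand from 250 bases before the start site. Each CG, the same on both strands, is in capitals.
Nkx1-1 promoter, chr5:33434041-33434340, minus strand: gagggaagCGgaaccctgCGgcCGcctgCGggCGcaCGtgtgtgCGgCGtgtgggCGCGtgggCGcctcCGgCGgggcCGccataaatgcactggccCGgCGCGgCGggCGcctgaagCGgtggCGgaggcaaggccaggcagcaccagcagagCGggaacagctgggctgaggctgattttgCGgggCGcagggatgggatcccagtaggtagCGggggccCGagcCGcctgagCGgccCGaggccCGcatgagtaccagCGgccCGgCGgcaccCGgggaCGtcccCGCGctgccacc
Uncx promoter, chr5:139543648-139543947, plus strand: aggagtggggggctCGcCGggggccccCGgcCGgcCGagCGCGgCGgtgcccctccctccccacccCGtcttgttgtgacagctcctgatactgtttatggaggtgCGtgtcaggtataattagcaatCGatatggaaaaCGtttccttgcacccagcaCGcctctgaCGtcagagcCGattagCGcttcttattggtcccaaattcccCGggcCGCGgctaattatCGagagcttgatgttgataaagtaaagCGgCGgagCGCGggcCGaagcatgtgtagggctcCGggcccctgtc
Inf2 promoter, chr12:112588517-112588816, plus strand: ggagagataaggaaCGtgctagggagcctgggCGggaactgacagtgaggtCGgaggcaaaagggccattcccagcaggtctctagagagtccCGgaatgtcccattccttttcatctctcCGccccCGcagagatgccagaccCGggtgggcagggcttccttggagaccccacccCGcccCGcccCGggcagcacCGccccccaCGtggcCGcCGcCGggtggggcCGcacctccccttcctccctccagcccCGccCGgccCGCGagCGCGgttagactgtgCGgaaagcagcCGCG
Ccin promoter, chr4:43983254-43983553, plus strand: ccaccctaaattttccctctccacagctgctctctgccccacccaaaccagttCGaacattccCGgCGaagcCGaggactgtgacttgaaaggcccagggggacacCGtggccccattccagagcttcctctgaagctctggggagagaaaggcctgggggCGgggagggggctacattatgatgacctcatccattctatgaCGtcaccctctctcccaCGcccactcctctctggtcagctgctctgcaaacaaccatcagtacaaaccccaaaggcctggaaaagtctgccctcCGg
The stretch of Nkx1-1 holds 37 CG and that of Uncx 26, against 25 for Inf2 and 9 for Ccin. Of all the promoters measured, 95.1% hold at least 1 CG in this window.

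Across all promoters, those richest in CpG had a higher inhibitor level than those poorest in it. Promoters were split into 5 equal classes by the number of CG in the 300 bases. In the lowest class, with 0 to 3 CG, the relative level was 1.18 and 1.20 after DMSO and 1.01 and 1.02 after the inhibitor. In the highest, with 27 to 65 CG, it was 3.22 and 3.07 after DMSO and 4.65 and 5.95 after the inhibitor. The fall in scaled reads was 630-fold in the former and 325-fold in the latter.

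Within the top decile, what an untreated promoter carried sorted what was left. It was cut into 5 equal classes by each property in turn. By untreated H3K27me3 itself, the lowest class had 4.32 and 4.88 after the inhibitor and the highest had 38.2 and 56.2. The same classes had 8.57 and 8.51 and then 20.0 and 19.2 after DMSO, a narrower range. In scaled reads the lowest class fell 1005-fold and the highest 230-fold.

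Untreated H3K27me2, the step below trimethylation, ran the other way. Promoters in its lowest class kept 35.9 and 51.3 times the library mean and fell 205-fold. Those in its highest class kept 4.74 and 5.50 and fell 1018-fold. H3K36me2 gave the same order, with 24.3 and 33.7 in its lowest class and 5.68 and 5.84 in its highest. CpG number gave 7.68 and 8.72 in its lowest class and 20.8 and 28.9 in its highest. The length of the authors' H3K27me3 peak over the promoter gave 10.95 and 12.8 in the shortest class and 19.3 and 27.7 in the longest, but medians there were closer, at 6.31 and 7.76 and at 7.57 and 9.17. The same comparison of medians gave 25.2 and 30.3 against 3.79 and 4.23 for H3K27me2, and 5.05 and 4.23 against 10.1 and 13.4 for CpG number.

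These properties go together, so H3K27me2, H3K36me2 and CpG number were each split at the median inside the 5 classes of untreated H3K27me3. In the highest of these classes, promoters with less H3K27me2 had 54.4 and 80.4 after the inhibitor, against 22.0 and 31.9 in those with more. The set with less H3K27me2 also started higher, with untreated H3K27me3 at 14.0 against 13.0. After DMSO the sets were at 20.5 ± 0.701 and 18.7 ± 0.401 (SD, n = 2), without overlap. This split therefore did not fully separate H3K27me2 from the starting level. Split by H3K36me2, the sets had 48.2 and 71.6 against 28.3 and 40.8. Split by CpG number they overlapped, with 34.0 and 48.8 with fewer CG and 42.5 and 63.5 with more. In each of the 5 classes, the promoters with less H3K27me2 had the higher inhibitor level in both libraries, and so had those with less H3K36me2. Both DMSO libraries had the same order in each of these comparisons, with smaller relative differences, and promoters with more CG were higher in both inhibitor libraries in 4 of the 5 classes.

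By class means, the remaining reads were also more concentrated around the start site. A minority of promoters carries these means, and the median promoter level fell from 12.2 and 11.8 to 7.57 and 7.76. A ratio by medians was not computed, so the typical promoter may differ. In the top decile, the level within 1 kb of the start site over that at 10 to 20 kb was 4.71 and 4.45 after DMSO. After the inhibitor it was 6.60 and 8.69. The means were 4.58 ± 0.187 and 7.65 ± 1.48 (SD, n = 2). The profile was highest 500 bp downstream of the start site in all 4 libraries, at 15.2 and 14.4 after DMSO and 18.4 and 25.0 after the inhibitor. In the 1360 of these genes with a measured body, promoter over body ratios were 2.73 and 2.62 and then 3.14 and 3.41.

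The lower 5 deciles changed shape. After DMSO their start sites lay in a trough, with a ratio over the flank of 0.405 and 0.378. After the inhibitor the ratio was 1.21 and 1.46, and a narrow crest stood over the start site at 1.75 and 2.02 times the library mean. At 1.5 kb upstream the inhibitor level was 1.05 and 0.975. The crest is a matter of 1 or 2 reads per promoter, and whether it is H3K27me3 or reads unrelated to the antibody was not tested.

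**Figure D4:**
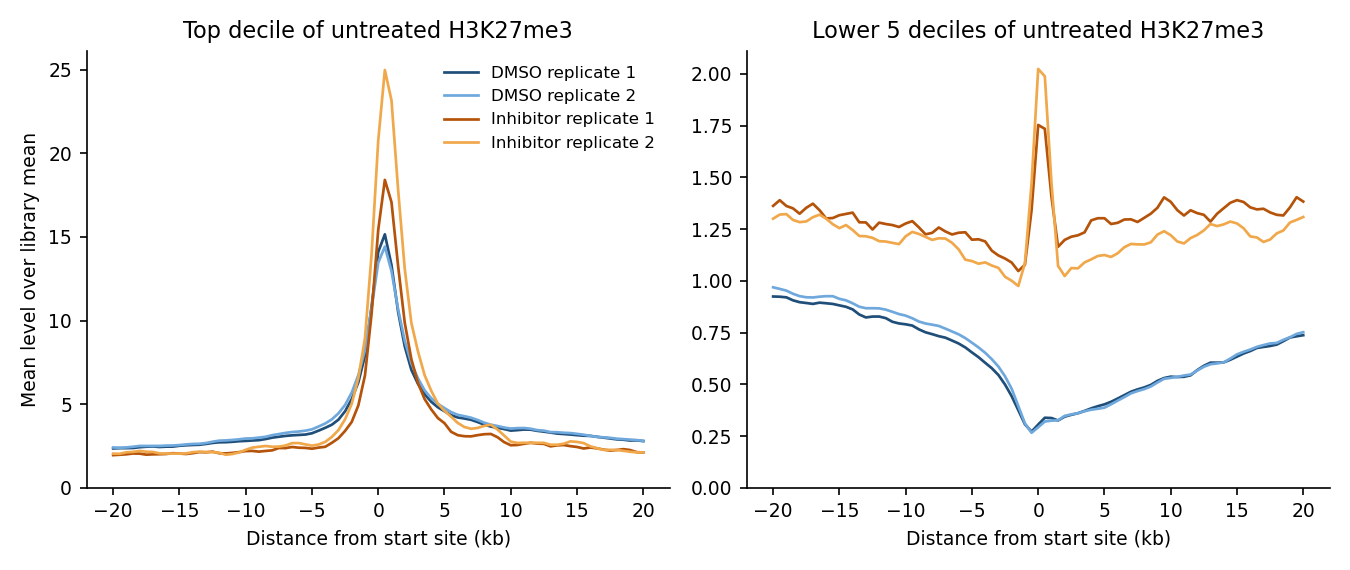
Mean H3K27me3 over the library mean by distance from the start site (kb, negative values upstream), for promoters in the top decile (left) and the lower 5 deciles (right) of untreated H3K27me3. Each line is 1 library, and the vertical scales differ. On the left the inhibitor peaks are higher and their flanks lower than after DMSO, and on the right a DMSO trough faces an inhibitor crest.

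Gene bodies were followed from 1 kb inside each end of a gene, in 16323 genes. Their mean relative level was 1.53 and 1.52 after DMSO and 1.88 and 1.83 after the inhibitor, with a 437-fold fall in scaled reads. Bodies in the top decile of untreated H3K27me3 did not show the promoters' excess in the mean, at 6.87 and 6.90 and then 5.81 and 6.76. They fell 593-fold, and the steepest fall was again in decile 9, at 760-fold.

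Bodies high in H3K36me3, the mark of transcribed genes, took more of the few reads left. In the top decile of untreated H3K36me3 (1632 bodies) the H3K27me3 level was 0.651 and 0.545 times the library mean after DMSO and 2.67 and 2.13 times after the inhibitor. The means were 0.598 ± 0.0748 and 2.40 ± 0.378 (SD, n = 2). In scaled reads these bodies fell 133-fold, from a mean of 26.96 to 0.203. In decile 4 the relative level was 2.77 and 2.81 and then 2.37 and 2.48, a 618-fold fall. Bodies in the lower 5 deciles of untreated H3K27me3 were alike in size, at 0.291 and 0.279 and then 1.25 and 1.08, a 130-fold fall. The 79 windows that were high in all 5 untreated marks took 0.139% of reads in each DMSO library and 0.437% and 0.470% after the inhibitor. Leaving them out moved none of the class means of promoters and bodies beyond the spread between replicates.

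Tested body by body relative to the library mean, limma called 7199 of 15932 (45.2%), with 5400 higher (33.9%) and 1799 lower (11.3%). On simulated libraries of this depth the same fit found 0 of 200 bodies changed 4-fold. It found 148 of 200 at 16-fold, with 20 false calls, and 153 at 64-fold, with 14 false calls. The simulation set the same spread for every body, so the share of false calls in the real libraries is not known. Of the real bodies in the top decile of untreated H3K36me3, 1200 of 1593 were called higher and 6 lower. In the top decile of untreated H3K27me3, 68 of 1632 were higher and 826 lower. The median change of all bodies was 0.25 on the log2(level + 1) scale, so higher calls are partly a matter of the centre. With each library centred on its own median body level, the median change was -0.23, and 1876 bodies were higher and 5428 lower. The lower calls are then partly a matter of the centre too. In the top H3K36me3 decile 816 were higher and 19 lower with this centring. Without either DMSO library 0 bodies were called by limma, with 3971 and 3840 at an unadjusted p under 0.05.

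Among bodies called relative to the library mean, with at least 20 reads on average, the largest rises were in Nkx2-1, Uncx, Egr3, Lhx1 and Skor1. Nkx2-1, a homeobox factor of thyroid, lung and forebrain, held 386 and 417 body reads with DMSO and 154 and 348 with the inhibitor. Its relative level rose from 22.4 and 18.7 to 194 and 245, a log2 change of 3.36 ± 0.172 (SE, adjusted p = 0.0124). Egr3, an early growth response factor, rose from 23.8 and 18.3 to 189 and 176. Lhx1, a LIM homeobox factor of kidney and head development, rose from 17.9 and 17.5 to 77.8 and 157. In scaled reads these 5 bodies fell 50.1-fold to 87.8-fold. Hmx1, a homeobox gene with a body of 9 windows, was among the 5 highest bodies after the inhibitor, at 108 and 208 against 24.0 and 26.2.

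Among called bodies with at least 20 reads on average, the largest falls on the relative scale were in Bsnd, Arid3c, Mxra8, Ripply2 and Pfpl. Bsnd, a chloride channel subunit gene, held 352 and 460 reads over 6 windows after DMSO and 0 and 5 after the inhibitor. Arid3c, a gene for an ARID DNA-binding protein, held 449 and 668 and then 1 and 10. Ripply2, a regulator of somite formation, held 63 and 80 and then 0 and 0, which is at least 1259-fold lower in scaled reads against a floor of 3 reads over both inhibitor libraries together, shared evenly between them. None of these 10 rises and falls stayed past the threshold without either DMSO library, where the spread rests on 1 pair of inhibitor libraries. The fall of Mxra8, with 0 and 3 reads left, was also lost with a pseudocount of 0.25, with no filter and with a replicate block.

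No promoter was called relative to the library mean by limma (0 of 13691, 0.0%), although 4641 had an unadjusted p under 0.05. On simulated libraries of this depth the same fit found 0 of 200 promoters changed 4-fold or 16-fold and 110 of 200 changed 64-fold. The simulation changed only 200 promoters at a time and set the same spread between replicates for every promoter. It therefore does not give the detection limit in the real libraries. limma-voom on the recovered reads found 35 of 200 at 4-fold, with 4 false calls, and 139 of 200 at 16-fold, with 43 false calls. On the real libraries limma-voom called 4528 promoters higher and 835 lower. A replicate block in limma also gave calls, as counted in the closing section. Leaving out an inhibitor library raised the number of limma calls, but that fit takes its spread from the DMSO pair alone. Promoter levels of single genes are therefore given as values.

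Among the gene lists, cell type markers left out, promoters of developmental transcription factors had the highest mean level after the inhibitor, though not the smallest fall, which was 62.8-fold at ribosomal protein promoters. The lists were grouped by function, but they and their members were chosen with earlier results of these data known. The 44 measured promoters of this list, 39 of them in the top decile, averaged 14.4 and 14.0 times the library mean after DMSO and 30.4 and 48.9 after the inhibitor. Their fall of 200-fold compares with 411-fold for all promoters. Gata5, a cardiac and endodermal GATA factor, had 21.5 and 21.0 and then 49.2 and 74.1. Neurog2, a proneural bHLH factor, had 22.3 and 20.9 and then 27.8 and 58.6. Tbx1, a T-box factor of the pharyngeal arches, had 20.8 and 25.0 and then 29.0 and 67.0. At 26 of the 44 promoters the inhibitor libraries both exceeded the DMSO libraries, and at 9 both were under them. Among all promoters 32.8% lay above and 27.9% below, and in the top decile 22.9% and 56.4%.

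Promoters of signalling ligands and antagonists came second among these lists, with 14.1 and 13.3 and then 21.6 and 30.8 over 30 genes, a 289-fold fall. Ihh, the Indian hedgehog ligand, held 417 and 547 reads with DMSO and 84 and 212 with the inhibitor, at 24.2 and 24.5 and then 106 and 150 times the library mean. Wnt1 had 25.0 and 24.2 and then 50.5 and 83.95, and Wnt4 had 24.2 and 24.1 and then 49.2 and 62.8. The list was divided: 13 of its 30 promoters lay above and 13 below (32.8% and 27.9% of all promoters). Of the 30, 24 belonged to the top decile, where 22.9% lay above and 56.4% below. The mean over the list's bodies overlapped between the arms.

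Hox promoters had a somewhat lower level after DMSO than the developmental transcription factors and no such excess after the inhibitor. Their median untreated H3K27me3 was 8.98, against 10.0 for those factors. In the top decile, the middle of the 5 classes by untreated H3K27me3 (median 8.93) had 9.07 and 10.6 after the inhibitor. The next class (median 10.4) had 14.9 and 19.4. The lists were not compared at equal untreated level. The 22 measured, 19 of them in the top decile, averaged 12.9 and 13.5 after DMSO and 7.69 and 15.97 after the inhibitor, which overlap. They fell 629-fold. At 15 of the 22 both inhibitor libraries lay below both DMSO libraries and at 3 above. In the top decile, which holds most of them, 56.4% of promoters lay below and 22.9% above, and among all promoters 27.9% and 32.8%. Hoxd12 went from 20.6 and 21.3 to 8.84 and 11.99, and Hoxb1 from 18.3 and 17.5 to 27.8 and 47.3. The difference between these lists was not tested. The Hox genes sit in clusters and are not independent of each other.

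Ribosomal protein and stem cell genes showed the flat low end of the scale. The 59 cytosolic ribosomal protein promoters were taken by gene name, which also took in genes such as Rpl3l and Rpl10l. They were at 0.239 and 0.235 after DMSO and 1.73 and 2.42 after the inhibitor, a 62.8-fold fall. The 14 pluripotency promoters averaged 1.27 and 1.25 and then 1.89 and 2.12, and the median promoter was at 0.236 and then 1.83. Pou5f1, the core stem cell factor Oct4, held 0 and 2 promoter reads with DMSO and 2 and 3 with the inhibitor. Sox2 held 2 and 2 and then 1 and 3. Nanog held 9 and 8 and then 0 and 2. Esrrb, a naive pluripotency factor in decile 9, held 105 and 167 and then 4 and 2, a 1018-fold fall. Of the 16 pluripotency bodies limma called 11 higher and 0 lower relative to the library mean (33.9% and 11.3% of all bodies). Their median change was 0.93 on the log2(level + 1) scale, beside 0.25 for all bodies. Their median untreated H3K27me3 was 0.103 and their median H3K36me3 5.82. Such calls were not particular to the list. In deciles 1 to 4 of untreated H3K27me3, 56.8% to 70.8% of bodies were called higher. In the top decile of untreated H3K36me3, 75.3% were. With the median centring 6 of the 16 pluripotency bodies were higher and 1 lower, beside 1876 and 5428 of all 15932 bodies.

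Genes of the Polycomb system itself lay between these groups. PRC2 and PRC1 subunit promoters (24 measured) averaged 2.36 and 2.17 after DMSO and 3.21 and 3.85 after the inhibitor. The median promoter was at 0.363 and then 2.71, and 14 of the 24 lay above both DMSO libraries and 5 below (32.8% and 27.9% of all promoters). The 3 with the most untreated H3K27me3 were lower on average after the inhibitor, unlike most of the list. Phf19, a PRC2 accessory subunit, had the highest untreated level of them and went from 16.1 and 12.6 to 11.4 and 10.6, a 710-fold fall. Pcgf5, a PRC1 subunit, went from 13.1 and 12.8 to 8.84 and 11.99, and Cbx8, another, from 6.61 and 5.78 to 3.79 and 4.94. Of 25 bodies 18 were called higher and 3 lower, beside 33.9% and 11.3% of all bodies. The median untreated H3K27me3 of these bodies was 0.158. In deciles 1 to 4 of untreated H3K27me3, 56.8% to 70.8% of all bodies were called higher. The median centring leaves the median change of all bodies at -0.23. With it 3 of the 25 were higher and 6 lower, beside 1876 and 5428 of all 15932 bodies. The 7 measured promoters of cyclin-dependent kinase inhibitor genes, which restrain the cell cycle, averaged 0.968 and 0.602 and then 1.26 and 1.41. Of them 4 lay above and 1 below (32.8% and 27.9% of all promoters), from 7 and 14 inhibitor reads in all. Cdkn1b held 18 and 10 promoter reads and then 2 and 4, at 1.04 and 0.448 and then 2.52 and 2.82. Cdkn2a held 35 and 24 promoter reads and then 1 and 4. Cdkn2c held 32 and 26 and then 0 and 0, at least 543-fold lower in scaled reads against a floor of 3 reads over both inhibitor libraries together.

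The 934 olfactory receptor promoters were at 0.752 and 0.741 after DMSO and 0.650 and 0.631 after the inhibitor, a 623-fold fall. Germline gene promoters (19) were at 6.02 and 5.66 and then at 4.65 and 4.20, a 705-fold fall. Sycp1, the gene for a synaptonemal complex protein, held 227 and 276 reads and then 12 and 17, a 497-fold fall. Olfr283, an olfactory receptor gene in the top decile, held 182 and 189 and then 2 and 2, a 2520-fold fall with a wide counting error. Olfr222 and Olfr71, also in the top decile, fell 829-fold and 1229-fold. Zfp promoters (319) were at 1.15 and 1.14 and then at 2.11 and 2.10. Zfp853, highest of them in untreated cells, held 378 and 585 reads and then 27 and 41, a 398-fold fall. The 36 measured bodies of clustered protocadherins were at 2.43 and 2.42 and then at 2.59 and 3.15. Of them 4 were called higher and 1 lower (33.9% and 11.3% of all bodies). The split turned with the setting. The median centring gave 1 higher and 18 lower, beside 1876 and 5428 of all 15932 bodies. limma-voom gave 16 higher and 1 lower, beside 7369 and 2313 of all bodies. Vomeronasal receptor promoters (263) were lowest throughout, at 0.185 and 0.226 and then at 0.288 and 0.308. These inhibitor means rest on 60 and 115 reads, and the median promoter went from 0.125 to 0. Of the 263, 17 lay above both DMSO libraries and 91 below (32.8% and 27.9% of all promoters).

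**Figure D5:**
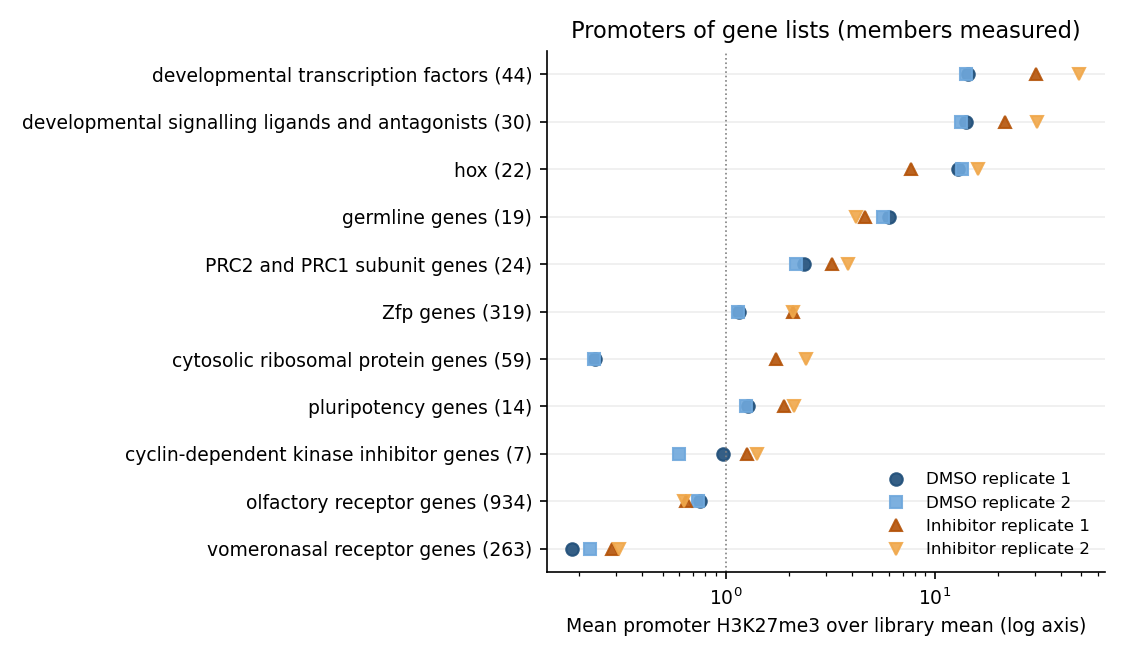
Mean promoter H3K27me3 over the library mean (log axis) for 11 gene lists, with the number of promoters measured in brackets. Each symbol is 1 library. Developmental transcription factors are highest after the inhibitor, at 30.4 and 48.9, Hox promoters overlap between the arms, and ribosomal protein promoters move from 0.24 to about 2.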

How the data were processed

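The authors deposited 1 track per library with a log2 value for each 1 kb window, placed every 500 bp over 5451088 windows, without a header. The submitters' processing notes name Trim Galore 0.4.2, Bowtie2 2.2.6.2, SICER and the builds mm10 and dm3, without roles. Chromosome ends matched GRCm38. In all 14 tracks used, the linear value (the log undone and 1 subtracted) was a whole number of steps of fixed size in 100% of windows (tolerance 0.02). The step was 5.943 and 3.37 in the DMSO libraries and 0.242 and 0.099 in the inhibitor libraries. It was taken to be the spike-in factor, and its derivation is not given in the sources used here. Dividing by it gave reads per window. A read touched 1.32 windows on average, and totals were divided by that. On 4 simulated tracks 100% of read numbers were recovered. The authors' H3K27me3 peak list, with a deposited score of unstated scale, was used for positions only.

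Means over non-overlapping windows of 19 autosomes (2462736 windows) were divided by the library mean to give relative levels. Promoters were the 2 non-overlapping windows nearest the start site. Start sites came from RefSeq promoter sequences, matched by gene identifier for 16456 of 20661 genes. Of these, 235 without a read in any of the 10 untreated libraries were left out, and chromosome 18 promoters were not used here. Bodies needed at least 2 windows wholly inside the gene after trimming 1 kb at each end. limma 3.58.1 (R 4.3.3; lmFit and eBayes, no covariate) compared 2 inhibitor with 2 DMSO libraries on log2(value + 1), for features with at least 10 reads summed, at a Benjamini-Hochberg adjusted p under 0.05. Fold changes on this scale understate those of low features. Negative binomial models were not run, and limma-voom on the recovered reads was run as an alternative. Class means were compared by exact permutation over libraries. The named genes were the 3 promoters of each list highest in untreated cells, Pou5f1, Sox2, Nanog and Cdkn2a, the 5 largest rises and falls called relative to the library mean with at least 20 reads on average, and the 5 highest promoters and bodies after the inhibitor with at least 10 reads in each inhibitor library. Inf2 and Ccin were chosen after their values were seen. The members and lists were chosen with earlier results of these data known. Alternatives covered left-out libraries, a replicate block, pseudocount, filter, centring, window width, flank and class definition. Python 3.11.15, numpy 2.4.6 and pandas 2.3.3 were used.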

Additional observations from a re-analysis of the deposited data

Results flagged for a closer look

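Chromosomes X and Y were left out of all comparisons, and both took a larger share of the reads after the inhibitor. The mean of chromosome X over the autosomal mean was 0.215 and 0.219 in the DMSO libraries and 0.242 and 0.262 in the inhibitor libraries. For chromosome Y it was 0.0116 and 0.0164 after DMSO and 0.0180 and 0.0362 after the inhibitor, from 9172 and 16831 reads against 655 and 2355. Both inhibitor libraries were above both DMSO libraries for each chromosome, with an exact permutation test unable to pass 0.333 at this size.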

How the results depend on the processing

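Of 108 alternative values for the main results, 97 kept their direction and stayed within the spread between replicates or within 1.5 times the count. The relative change of top-decile promoters turned from 0.40 by the mean to -0.65 by the median, on the log2 scale. With at least 50 reads, 6608 promoters were called on the spike-in scale, since fewer were tested. Relative to the library mean, promoter calls (0) became 1740 with a replicate block and 5363 with limma-voom; the cause was not tested. The split of the body calls also turned: of 7199 calls most were higher, and of 7304 with each library centred on its own median body most were lower, with a median change of -0.23 in place of 0.25. Same-numbered libraries deviated together with a correlation of 0.0793 over 15932 bodies, and 2 pairs do not show pairing. With the replicate block 5170 bodies were called relative to the library mean, and means of same-numbered differences gave the values as reported.

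Leaving out 1 library at a time gave changes of -9.29 to -8.84 for the genome and -8.91 to -8.42 for promoters on the log2 spike-in scale. Relative to the library mean the ranges were 0.19 to 0.62 for top-decile promoters, 2.40 to 2.55 for the lower 5 deciles, -0.25 to -0.03 for bodies high in H3K27me3, 1.84 to 2.16 for bodies high in H3K36me3, -0.15 to -0.11 outside genes and 0.53 to 0.92 for the promoter over flank ratio. Calls ranged from 13611 to 13632 for promoters and 15905 to 15932 for bodies on the spike-in scale, and from 0 to 10289 and 0 to 11797 relative to the library mean. Each of these fits leaves an arm with 1 library, so the spread behind its calls comes from the other arm alone. A median outside genes was not possible because it was 0 after the inhibitor. The 2 inhibitor libraries limit single promoters: 1841 of 16221 had 0 reads in both.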
